A study of Mus musculus with 40 samples.

Results

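The genes of bile acid synthesis were followed in the liver of mice after small bowel resection (SBR) and after treatment of such mice with WUSTL0717, a gut-restricted agonist of the liver X receptors. The set holds 9 listed genes. Of these, 8 had a row among the 15958 genes of the deposited table, and all 8 passed the filter on low values that left 15901 genes for testing in the liver. *Hsd3b7*, which encodes the steroid dehydrogenase that acts after the first hydroxylation, was not analysed here.

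RNA was sequenced from 18 livers of wild type male C57BL/6 mice. Surgery was done at 8 weeks of age. Vehicle was given to 5 sham-operated and to 8 SBR mice, and 5 further SBR mice received WUSTL0717 at 30 mg/kg per day. Dosing began 3 weeks after the operation and lasted 7 weeks. According to the labels 50 to 60% of the small bowel was removed, whereas the methods of the study give a larger extent. No sham mice given WUSTL0717 are in the table, so the drug was compared with vehicle in resected mice alone. The tissue was a piece of 1 liver lobe with all its cell types, so fewer hepatocytes and less RNA per hepatocyte cannot be told apart in any value below. The labels do not say which mice shared a cage, a litter or an operation day. The methods of the study state that controls were siblings of the other mice and that siblings shared housing. Libraries were treated as independent here, and the p-values measure the spread between these libraries.

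Bile acids are made from cholesterol in hepatocytes. In the classical pathway *Cyp7a1* encodes the rate-limiting 7α-hydroxylase, *Cyp8b1* encodes the 12α-hydroxylase that directs the product towards cholic acid, and *Akr1d1* encodes the 5β-reductase that saturates the steroid ring. In the alternative pathway *Cyp27a1* encodes the mitochondrial sterol 27-hydroxylase and *Cyp7b1* the oxysterol 7α-hydroxylase that follows it. *Amacr* encodes the racemase needed before the side chain is shortened in peroxisomes, *Slc27a5* the bile acid CoA ligase, and *Baat* the enzyme that joins taurine or glycine to the bile acid. Bile acids returning from the ileum restrain the pathway through the farnesoid X receptor, the hepatic repressor encoded by *Nr0b2* (SHP) and the intestinal hormone encoded by *Fgf15*. *Fgf15* itself was not analysed here.

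In the mouse genome (GRCm38, GENCODE M21) the members lie apart from each other. *Cyp7a1* is at chr4:6265612-6275633 and *Baat* at chr4:49489422-49506557, both on the minus strand. *Cyp8b1* is at chr9:121914356-121916305 (minus), *Akr1d1* at chr6:37530173-37568815 (plus), *Cyp27a1* at chr1:74713574-74737892 (plus) and *Cyp7b1* at chr3:18071950-18243338 (minus). *Amacr* is at chr15:10981756-10996626 (plus) and *Slc27a5* at chr7:12988346-12998192 (minus).

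Promoter sequences were at hand from RefSeq (GRCm38.p6) for 4 of the 9 listed genes. The 250 bases before the start of transcription are shown for the 3 of them with measured values. All 3 stood lower in the mean after SBR and higher with WUSTL0717, as did every measured member but *Cyp7a1*. The fall of *Cyp27a1* after SBR did not pass the test. Capitals mark the motifs searched on both strands. Distances are counted back from the last base of each window, next to the RefSeq start. For *Cyp27a1* that start lies upstream of the GENCODE gene start given above, while for *Cyp8b1* and *Akr1d1* the starts are the same.
Cyp8b1, chr9:121916306-121916555, minus strand: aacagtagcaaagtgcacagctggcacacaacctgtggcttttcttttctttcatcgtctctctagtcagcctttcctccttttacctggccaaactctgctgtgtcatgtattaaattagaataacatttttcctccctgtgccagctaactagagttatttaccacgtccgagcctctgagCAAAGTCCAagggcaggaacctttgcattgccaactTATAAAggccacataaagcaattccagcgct
Akr1d1, chr6:37529923-37530172, plus strand: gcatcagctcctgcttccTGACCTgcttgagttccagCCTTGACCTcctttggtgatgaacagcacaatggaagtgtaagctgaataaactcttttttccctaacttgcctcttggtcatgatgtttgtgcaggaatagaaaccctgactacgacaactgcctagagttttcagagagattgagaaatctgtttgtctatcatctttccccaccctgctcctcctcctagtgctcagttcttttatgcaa
Cyp27a1, chr1:74713285-74713534, plus strand: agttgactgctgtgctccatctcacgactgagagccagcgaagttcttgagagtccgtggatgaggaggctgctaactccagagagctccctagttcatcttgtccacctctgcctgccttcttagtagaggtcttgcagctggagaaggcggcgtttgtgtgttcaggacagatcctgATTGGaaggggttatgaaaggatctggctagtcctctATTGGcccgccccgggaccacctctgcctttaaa
The *Cyp8b1* promoter holds CAAAGTCCA, a motif bound by the hepatocyte nuclear factor HNF4, at 67 to 59 bases before the start, a match found in 0.384% of 32851 promoter windows of the same length. It also holds the TATA box letters TATAAA at 31 to 26 bases before the start, which 12.4% of windows hold. The *Akr1d1* window holds the nuclear receptor motif AGGTCA in reverse 2 times, starting 232 and 210 bases before the start, and 14% of windows hold at least 1 match. The second of these overlaps a reverse match to TCAAGG, a motif of the SF-1 and LRH-1 type found in 12.5% of windows. The *Cyp27a1* window holds the reversed CCAAT box at 71 and at 34 bases before the start, a box that 33.8% of windows hold. The letters TTCNNNGAA, bound by STAT factors, were searched as well, are in 7.02% of windows and are in none of the 3 shown. These matches describe letters and not bound sites.

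Values are log2 TPM, transcript abundance scaled to gene length and library total, after the authors' batch correction. The liver formed its own batch, and the corrected means of liver and gut lay less than 1 log2 unit apart for 99.8% of genes, so a gene's level here is not its level in the tissue. *Cyp7a1* stood at 2.82 in every library of the duodenum of SBR vehicle mice, with an SD of 0, although it is a liver gene. Levels were therefore not compared between genes or tissues, and the size of a difference may have been rescaled along with the spread. Read totals were not at hand, and depth is unknown. Both the scaling and the composition of the libraries touch the results. The median difference over all 15901 genes between SBR vehicle and sham was 0.25 on the log2 scale, and between SBR WUSTL0717 and sham 0.27, whereas it was 0.021 between the SBR groups. Of the genes called by limma, 89.3% were higher in SBR vehicle than in sham livers, 35.1% higher with WUSTL0717 than with vehicle and 96.9% higher in treated than in sham livers. With each library centred on its median these shares were 41.5, 58.4 and 54.5%, after quantile normalization 45.6, 48.8 and 56.1%, with protein-coding rows rescaled 68.0, 24.2 and 64.0%, and with libraries centred on hepatocyte genes 98.3, 1.02 and 98.3%. In addition, 1 short non-coding row, *Gm23935*, held between 10.3 and 26.2% of the recovered TPM total in sham libraries, between 3.98 and 32.2% in SBR vehicle libraries and between 2.19 and 9.57% in SBR WUSTL0717 libraries. The libraries SBR vehicle 2 and 3 and sham 2 were above 20%. TPM was recovered from the batch-corrected values with an assumed pseudocount of 1, and the totals ran from 686816 to 819788. The share of this row before the correction is therefore unknown. Counts of called genes are those of the values as deposited unless another scaling is named.

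Most of the measured bile acid synthesis genes were lower in the liver after SBR. Of 8 members 6 were lower in SBR vehicle than in sham mice at an adjusted p under 0.05 and 0 were higher, against 4.47% of all tested genes that were lower. *Cyp7b1* fell most among the members, to 0.191 times the sham level. *Cyp8b1* fell to 0.514 times, and *Slc27a5*, *Akr1d1*, *Baat* and *Amacr* fell to between 0.648 and 0.822 times. *Cyp27a1* missed the threshold, and *Cyp7a1*, the first enzyme of the classical pathway, differed by 0.011. The median log2 difference of the members was -0.54 beside 0.25 over all genes tested. Limma p-values were adjusted over all genes by the Benjamini-Hochberg procedure. Exact p-values are two-sided and come from permuting the labels in all 1287 ways of drawing 8 against 5 libraries, which cannot give less than 0.000777. Folds are antilogs of the log2 differences, and a pseudocount in the deposited values would make those of low genes too small.

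**Figure D1:**
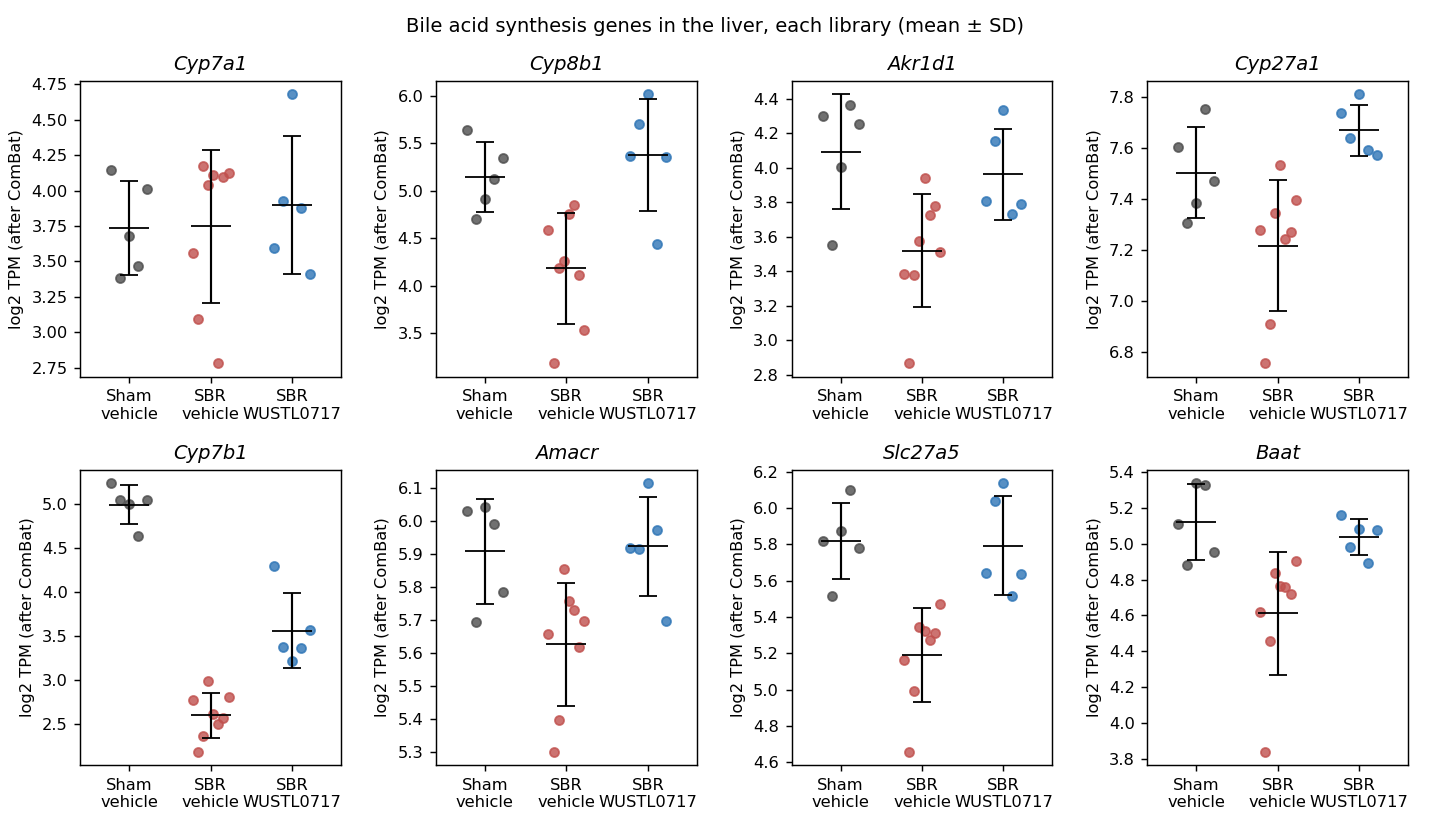
Log2 TPM after batch correction of the 8 measured members in each liver library (points), with the mean (bar) and SD (whiskers) for 5 sham mice, 8 SBR mice on vehicle and 5 on WUSTL0717. Each panel has its own scale. The SBR vehicle libraries of Cyp7b1 lie between 2.19 and 2.99, below all 5 sham libraries, while those of Cyp7a1 span 2.78 to 4.17 and enclose the sham range of 3.38 to 4.14.

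Among the enzymes of the classical pathway, *Cyp7a1* in the 5 sham livers was at 4.14, 3.38, 3.68, 3.47 and 4.01. In the 8 SBR vehicle livers it ran from 2.78 to 4.17 with a median of 4.07. The groups overlapped almost fully, with 5 of the SBR vehicle libraries between 4.04 and 4.17 and the libraries 6, 2 and 1 below them. The difference was 0.011 (standard error 0.25, limma adjusted p = 0.978, exact p = 0.969), with a 95% interval from -0.51 to 0.53.

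*Cyp8b1*, the 12α-hydroxylase, was at 5.64, 4.70, 4.91, 5.13 and 5.34 in sham livers. In SBR vehicle livers it ran from 3.18 to 4.85 with a median of 4.22. Of the 8 SBR vehicle libraries 6 lay below every sham library, and the library SBR vehicle 2 was the lowest. The log2 difference was -0.96 (standard error 0.28, limma adjusted p = 0.00951, exact p = 0.00777).

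*Akr1d1*, the 5β-reductase, was at 4.30, 3.55, 4.01, 4.36 and 4.25 in sham livers and ran from 2.87 to 3.94 with a median of 3.54 in SBR vehicle livers. Sham 2 was the 1 sham library inside the SBR vehicle range. The difference was -0.57 (standard error 0.17, limma adjusted p = 0.0106, exact p = 0.0124).

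In the alternative pathway, *Cyp7b1* and *Cyp27a1* are described in turn. *Cyp7b1* was at 5.24, 5.05, 5.00, 4.64 and 5.04 in sham livers and ran from 2.19 to 2.99 with a median of 2.60 in SBR vehicle livers. All 8 SBR vehicle libraries lay below all 5 sham libraries, by more than 1 log2 unit. *Cyp7b1* and *Slc27a5* were the 2 of 8 members whose SBR vehicle and sham groups did not overlap, which 17.2% of all tested genes had. The log2 difference was -2.39 (standard error 0.16, limma adjusted p = 1.04e-08, exact p = 0.000777), a level 5.25-fold lower than in sham. *Cyp27a1* was at 7.60, 7.31, 7.38, 7.75 and 7.47 in sham livers and ran from 6.76 to 7.54 with a median of 7.28 in SBR vehicle livers. Its groups overlapped, and its difference of -0.29 did not pass the test (standard error 0.12, limma adjusted p = 0.0577, exact p = 0.0552).

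The genes of side chain processing and conjugation fell by smaller amounts. *Slc27a5*, the bile acid CoA ligase, was at 5.82, 5.51, 5.87, 6.10 and 5.78 in sham livers and ran from 4.66 to 5.47 with a median of 5.29 in SBR vehicle livers. The highest SBR vehicle library was just under the lowest sham library. The difference was -0.63 (standard error 0.14, limma adjusted p = 0.0013, exact p = 0.000777). *Baat*, which joins the amino acid, was at 5.11, 4.88, 5.34, 5.33 and 4.95 in sham livers and ran from 3.84 to 4.90 with a median of 4.74 in SBR vehicle livers. Of the 8 SBR vehicle libraries 7 lay below every sham library, and SBR vehicle 2 stood apart from the other 7. The difference was -0.51 (standard error 0.14, limma adjusted p = 0.0079, exact p = 0.00389). *Amacr* ran from 5.69 to 6.04 in sham livers and from 5.30 to 5.85 in SBR vehicle livers. Its difference of -0.28 (standard error 0.10, limma adjusted p = 0.0314, exact p = 0.0218) was the smallest of the 6 that passed, and it missed the threshold when any 1 of sham 1, sham 3, sham 4 or SBR vehicle 3 was left out (adjusted p between 0.0512 and 0.0843).

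**Figure D2:**
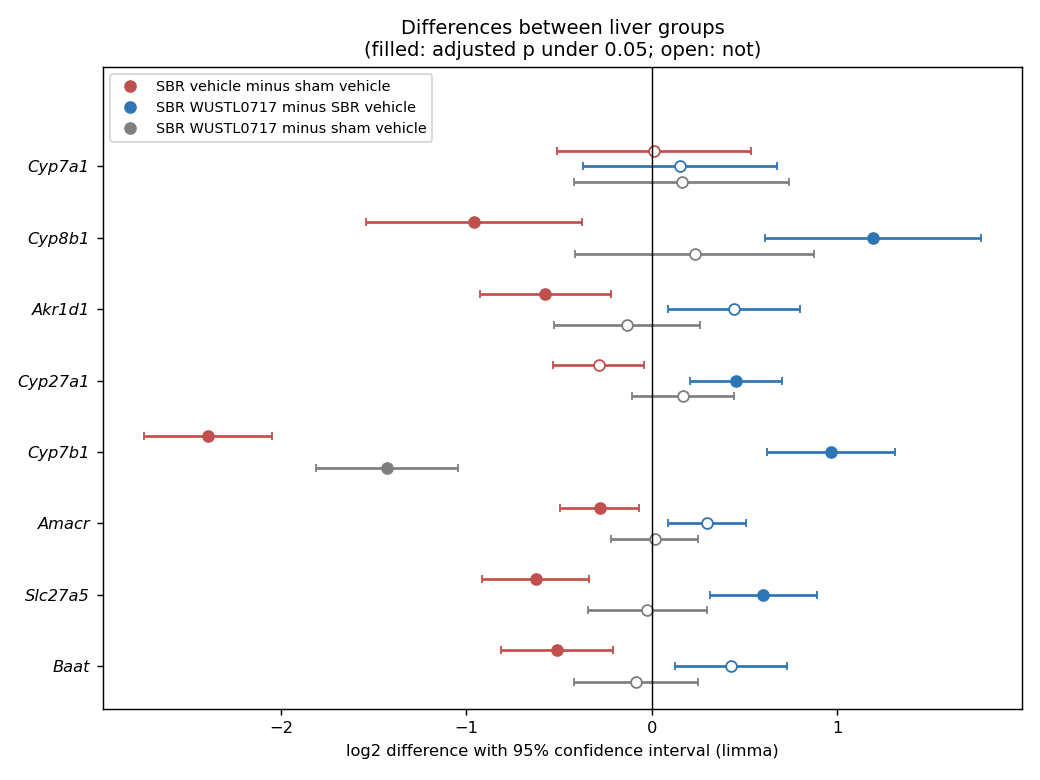
Log2 differences between liver groups (points) with 95% confidence intervals (lines) from limma for the 8 measured members, in 3 comparisons. Filled points have an adjusted p under 0.05. For SBR vehicle minus sham, 6 of 8 points are filled and all 6 are below 0, and for SBR WUSTL0717 minus SBR vehicle, 4 are filled and all 4 are above 0.

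With WUSTL0717, 4 of the 8 members were higher in the livers of resected mice and 0 were lower, against 1.44% of all tested genes that were higher. *Cyp8b1* rose 2.28-fold, *Cyp7b1* 1.95-fold, *Slc27a5* 1.52-fold and *Cyp27a1* 1.37-fold over SBR vehicle. *Baat*, *Akr1d1* and *Amacr* stood higher in the mean by 0.43, 0.44 and 0.30 on the log2 scale without passing the test, and *Cyp7a1* by 0.15. The median log2 difference of the members was 0.45 beside 0.021 over all genes tested. The SBR vehicle libraries serve in this comparison and in the comparison with sham, so the opposite directions of the 2 comparisons share these 8 libraries and are not independent of each other.

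*Cyp8b1* was at 5.36, 5.70, 6.01, 4.44 and 5.36 in the 5 livers of mice given WUSTL0717, and all but library 4 lay above the SBR vehicle range of 3.18 to 4.85. The log2 difference was 1.19 (standard error 0.28, limma adjusted p = 0.0218, exact p = 0.00544). Its mean also passed that of sham, 5.37 ± 0.59 (SD, n = 5) against 5.14 ± 0.37 (SD, n = 5), by less than the spread.

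*Cyp7b1* was at 4.29, 3.37, 3.22, 3.37 and 3.57 with WUSTL0717. Every one of these lay above the highest SBR vehicle library (2.99) and below the lowest sham library (4.64). The difference from SBR vehicle was 0.96 (standard error 0.16, limma adjusted p = 0.00679, exact p = 0.000777). Library 1 stood well above the other 4 treated libraries.

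*Slc27a5* was at 5.64, 6.04, 6.14, 5.52 and 5.63 with WUSTL0717, each above the highest SBR vehicle library (5.47). The difference was 0.60 (standard error 0.14, limma adjusted p = 0.0209, exact p = 0.000777). *Cyp27a1* was at 7.74, 7.64, 7.81, 7.59 and 7.57, again each above the highest SBR vehicle library (7.54), with a difference of 0.45 (standard error 0.12, limma adjusted p = 0.0352, exact p = 0.00389). *Cyp7b1*, *Slc27a5* and *Cyp27a1* thus had treated and vehicle groups that did not overlap, which 1.54% of all tested genes had.

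*Baat* ran from 4.89 to 5.16 with WUSTL0717, and 4 of its 5 libraries lay above the SBR vehicle range (difference 0.43, limma adjusted p = 0.107, exact p = 0.00932). *Akr1d1* ran from 3.73 to 4.33 (difference 0.44, limma adjusted p = 0.166, exact p = 0.0233). *Amacr* ran from 5.70 to 6.11 (difference 0.30, limma adjusted p = 0.112, exact p = 0.0124). For these 3 the exact test of the single gene gave a low p that the adjustment over all genes did not carry. *Cyp7a1* was at 3.60, 3.93, 4.68, 3.88 and 3.41, with library 3 above the vehicle range and the other 4 within it, and with a difference of 0.15 and a 95% interval from -0.37 to 0.67 (limma adjusted p = 0.846, exact p = 0.629).

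The calls with WUSTL0717 changed with single libraries. Without WUSTL0717 library 2 or without library 3, 1 member was called, and without library 1, 2 members were, although the log2 difference of *Cyp8b1* stayed between 1.03 and 1.19 in these 3 fits. The rise of *Cyp27a1* missed the threshold in 8 of 18 fits with 1 library left out, those without SBR vehicle 1, 3, 6 or 7 or without WUSTL0717 1, 2, 3 or 5 (limma adjusted p between 0.051 and 0.124). *Cyp7b1* was called in all 18. With only the 2 compared groups in the fit 1 member was called. With an unmoderated two-sample test 0 of 8 members and 0 genes were called, and 7 members and 2223 genes had an unadjusted p under 0.05. The 4 members called by limma then had adjusted p-values between 0.0961 and 0.139. Limma called 652 genes in this comparison, with 2738 at an unadjusted p under 0.05.

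In SBR mice given WUSTL0717, 1 of the 8 members differed from sham at an adjusted p under 0.05, against 28.8% of all tested genes that were called in this comparison in either direction. This was *Cyp7b1*, at 3.57 ± 0.42 (SD, n = 5) with WUSTL0717 and 4.99 ± 0.22 (SD, n = 5) in sham livers. Its log2 difference was -1.43 (standard error 0.18, limma adjusted p = 5.2e-05), and the exact p of 0.00794 is the smallest that 5 against 5 libraries allow. For the other members the differences ran from -0.13 (*Akr1d1*, 95% interval -0.53 to 0.26) to 0.23 (*Cyp8b1*, 95% interval -0.42 to 0.88), and the interval of *Slc27a5* was -0.34 to 0.30. The values do not show that treated and sham livers were alike, since the interval of *Akr1d1* reaches nearly as far down as its fall after SBR. The result also depends on the scaling, since the median over all genes in this comparison was 0.27. With each library centred on its median, 3 members were lower than sham (*Cyp7b1*, *Baat* and *Amacr*). After quantile normalization 4 were lower, and with protein-coding rows rescaled 5 were. With libraries centred on hepatocyte genes *Cyp7b1* was lower and *Cyp27a1* higher, by 0.25 (limma adjusted p = 0.0226). The 28.8% of all tested genes is a share of the values as deposited and does not apply under these scalings.

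**Figure D3:**
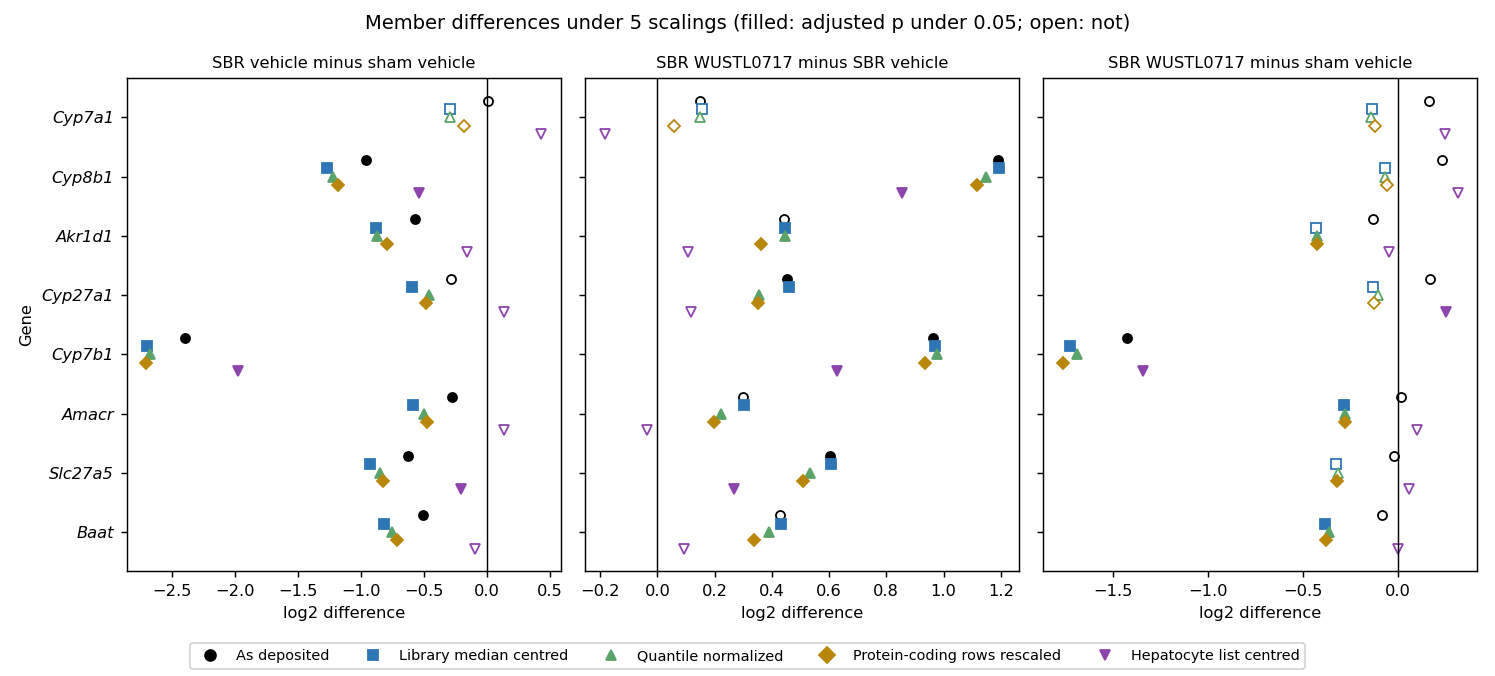
Log2 differences of the 8 members in 3 comparisons under 5 scalings of the liver libraries, where filled symbols have a limma adjusted p under 0.05. Cyp7b1 and Cyp8b1 keep their direction and their call in the first 2 panels under all 5 scalings, whereas in the third panel the sign of Cyp7a1, Cyp8b1, Cyp27a1, Amacr and Slc27a5 changes with the scaling.

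Under the 5 scalings of the libraries plotted, the falls of *Cyp7b1*, *Cyp8b1* and *Slc27a5* after SBR and their rises with WUSTL0717 passed the test each time. With libraries centred on their medians, quantile normalized or rescaled to protein-coding rows, 7 of 8 members were lower after SBR and 7 of 8 higher with WUSTL0717, and *Cyp7a1* was the member that did not pass. With libraries centred on the mean of 13 hepatocyte genes (*Alb* and others), 3 members were lower after SBR and 3 higher with WUSTL0717, in both cases *Cyp7b1*, *Cyp8b1* and *Slc27a5*. *Cyp27a1* and *Amacr* then stood at 0.13 and 0.14 above sham without passing. Without the 3 libraries in which *Gm23935* held over 20%, 7 members were lower after SBR and 5 higher with WUSTL0717. The shares over all tested genes, 4.47% lower after SBR and 1.44% higher with WUSTL0717, are those of the values as deposited. They do not apply to the counts under these alternatives. The share of all genes called in 1 direction under each alternative is not given here. The counts under the alternatives, for the members and for the lists below, therefore cannot be set against all genes. With WUSTL0717 each of these alternatives called more genes than the 652 of the values as deposited.

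A difference between 2 members within the same library is not changed by adding a constant to that library. The 3 such differences given here were chosen after the members' values were seen, so they are described with no test. They restate the differences of the single members given above and are not separate results. How often other pairs of genes separate the groups was not computed. The log2 difference *Cyp8b1* minus *Cyp7a1* was 1.41 ± 0.17 (SD, n = 5) in sham, 0.44 ± 0.81 (SD, n = 8) in SBR vehicle and 1.47 ± 0.56 (SD, n = 5) in SBR WUSTL0717 livers. Of the 8 SBR vehicle libraries 7 lay below every sham library and 1 above every sham library.

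The log2 difference *Cyp7a1* minus *Cyp7b1*, the 7α-hydroxylases of the 2 pathways, was -1.26 ± 0.25 (SD, n = 5) in sham, 1.15 ± 0.49 (SD, n = 8) in SBR vehicle and 0.33 ± 0.81 (SD, n = 5) in SBR WUSTL0717 livers. All 8 SBR vehicle libraries were above all sham libraries, by 2.40 in the mean. All 5 treated libraries were above all sham libraries too, and 2 of them were below all SBR vehicle libraries.

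The log2 difference *Cyp7b1* minus *Cyp27a1*, both in the alternative pathway, was -2.51 ± 0.34 (SD, n = 5) in sham, -4.62 ± 0.17 (SD, n = 8) in SBR vehicle and -4.11 ± 0.42 (SD, n = 5) in SBR WUSTL0717 livers. All 8 SBR vehicle and all 5 treated libraries were below all sham libraries, and 4 treated libraries were above all SBR vehicle libraries. Because the batch correction may have rescaled each gene differently, the sizes of these differences are less certain than their directions.

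**Figure D4:**
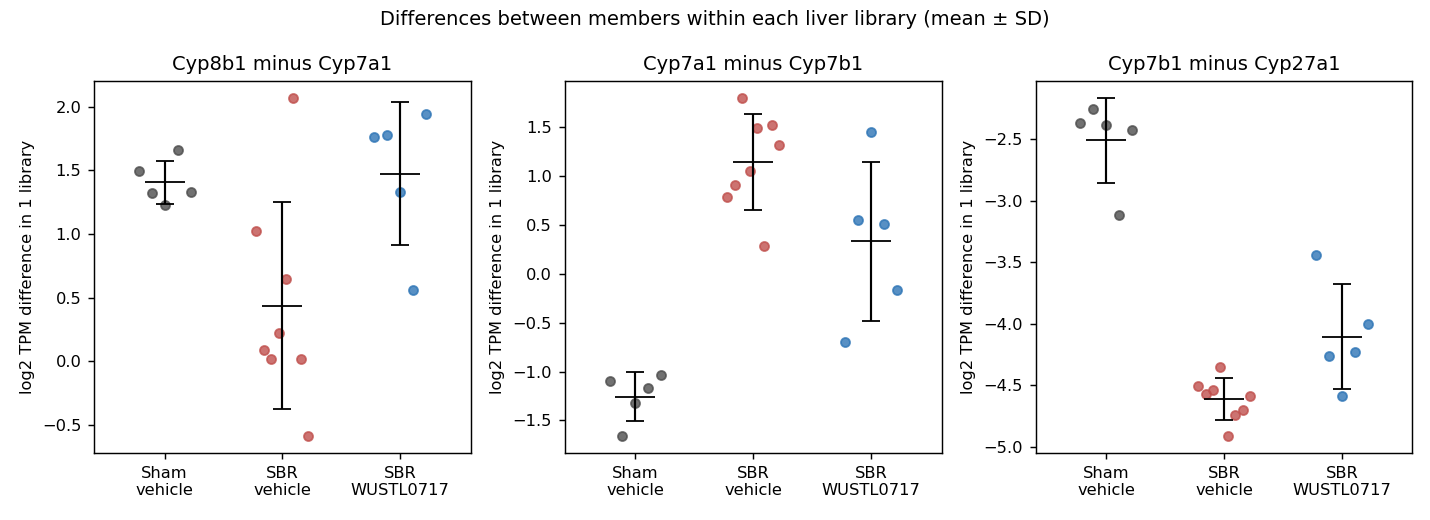
Log2 TPM difference between 2 members within each liver library (points), with the mean (bar) and SD (whiskers) for 5 sham mice, 8 SBR mice on vehicle and 5 on WUSTL0717. Cyp7a1 minus Cyp7b1 is between -1.67 and -1.03 in sham and between 0.28 and 1.80 in SBR vehicle livers.

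Within groups the members varied together to different degrees. Over the 18 liver libraries with group means subtracted, Pearson's r between pairs of members had a median of 0.49 over 28 pairs and ran from -0.01 (*Cyp7b1* and *Akr1d1*) to 0.86 (*Slc27a5* and *Akr1d1*). *Cyp27a1*, *Baat*, *Slc27a5*, *Akr1d1* and *Amacr* were correlated with each other at 0.66 to 0.86, and at 0.26 (*Baat* and *Amacr*) to 0.77 (*Slc27a5* and *Akr1d1*) with each library centred on its median. *Cyp8b1* followed *Akr1d1* at 0.75, whereas the highest r of *Cyp7a1* was 0.50, with *Akr1d1*, and that of *Cyp7b1* 0.42, with *Baat*. These values describe libraries that differ in composition. The r of the members with the share of *Gm23935* was -0.88 for *Amacr*, -0.86 for *Baat*, -0.85 for *Cyp27a1* and -0.24 for *Cyp7b1*. With each library centred on its median, the median r between members was 0.44 and the range -0.29 to 0.77.

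**Figure D5:**
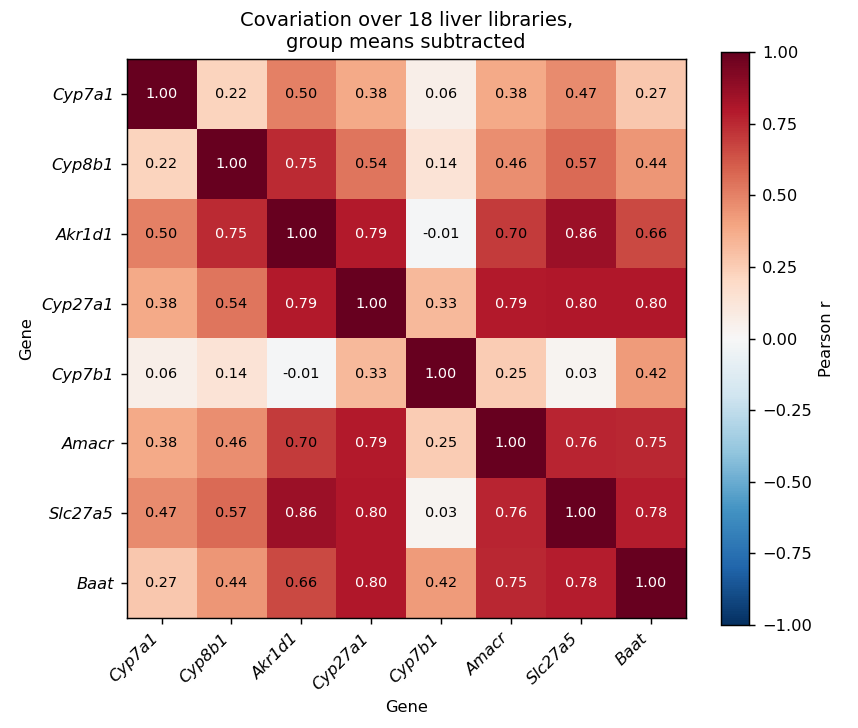
Pearson's r between members over 18 liver libraries after subtracting group means, from blue (negative) through white (0) to red (positive). Slc27a5 and Akr1d1 have the highest value, 0.86, and the row of Cyp7b1 holds values between -0.01 and 0.42.

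The genes most like each member by the same measure were found among all tested genes, and their order rests on the values as deposited. *Cyp7a1* was followed by *Slc38a3*, a glutamine transporter, at 0.86 and by *Mid1ip1*, a regulator of fatty acid synthesis, at 0.84 (0.86 and 0.88 with libraries centred on their medians). *Cyp8b1* was followed by *Hpd* and *Cps1*, enzymes of tyrosine breakdown and of the urea cycle, at 0.82 each (0.79 and 0.86 with centring). *Cyp7b1* was followed by the transcripts *Gm9354* and *E130201H02Rik* at 0.89 and 0.86 and by the complement gene *C6* at 0.86. *Slc27a5* was followed by *Serpina1b*, *F2* and *Plg*, which encode plasma proteins, at 0.97, 0.96 and 0.96. *Baat* was followed by *Edem1*, *Gc* and *Azgp1* at 0.98, 0.97 and 0.97, *Cyp27a1* by *Gpld1* and *Prdx6* at 0.94 each, *Akr1d1* by *Sult1a1* and *Bphl* at 0.95 each, and *Amacr* by *Ppdpf* at 0.95 and *Kmo* at 0.94 (0.84 and 0.75 with centring). *Serpina1b* belongs to a family of near-identical copies, so its reads may have been divided among them.

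Of 9 other genes of bile acid synthesis tested, 3 were lower and 0 higher after SBR, with a median log2 difference of -0.22, which turned to 0.19 when libraries were centred on hepatocyte genes. For this and the following liver lists, the counts over all 15901 tested genes as deposited were 5953 higher and 710 lower after SBR. With WUSTL0717 they were 229 higher and 423 lower, and for treated against sham livers 4436 higher and 144 lower. *Akr1c14*, an aldo-keto reductase, fell from 6.32 ± 0.20 (SD, n = 5) in sham to 5.26 ± 0.29 (SD, n = 8) in SBR vehicle livers (difference -1.07, limma adjusted p = 5.17e-06). *Slc27a2*, a CoA ligase for very long fatty acids and bile acid precursors, fell by 0.48 (limma adjusted p = 0.00408), and *Akr1c6* by 0.47 (limma adjusted p = 0.0193). With WUSTL0717, *Slc27a2* and *Akr1c14* were the 2 of 9 that rose, by 0.55 and 0.57 (limma adjusted p = 0.0178 and 0.0244), and the list's median of 0.31 turned to -0.026 with hepatocyte centring. With median centring, quantile normalization or protein-coding rows rescaled 5 of the 9 were higher with the drug. With hepatocyte centring 2 were lower and 0 higher. In treated livers *Akr1c14* was still 0.50 below sham (limma adjusted p = 0.0204), and *Hsd17b4* and *Acot8*, of peroxisomal side chain shortening, were 0.44 and 0.39 above it (limma adjusted p = 0.0337 and 0.0493). With median centring, quantile normalization or protein-coding rows rescaled, both calls were lost and 3 of the 9 were lower than sham. After SBR these scalings gave 5 or 6 lower, and hepatocyte centring 1 lower and 5 higher.

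Of 15 genes for regulators of the pathway, 4 were lower and 1 higher after SBR, and 1 was higher with WUSTL0717. *Nr0b2*, the repressor SHP, was at 5.42 ± 0.70 (SD, n = 5) in sham, 4.50 ± 0.64 (SD, n = 8) in SBR vehicle and 5.66 ± 0.26 (SD, n = 5) in SBR WUSTL0717 livers. It fell by 0.93 after SBR (limma adjusted p = 0.0192) and rose by 1.16 with WUSTL0717 (limma adjusted p = 0.0358). *Cebpa*, a hepatocyte transcription factor, fell by 0.48 after SBR (limma adjusted p = 0.00733), and *Nr1h2*, the liver X receptor β, rose by 0.45 (limma adjusted p = 0.00193). The median over the list was -0.11 after SBR and 0.25 with WUSTL0717, and both changed sign with libraries centred on hepatocyte genes (0.30 and -0.088). After SBR 11 were lower and 1 higher with median centring, and 10 higher with hepatocyte centring, where the 4 falls were lost. With WUSTL0717 6 were higher with median centring.

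Among 12 genes of bile acid transport, 5 were higher and 3 lower after SBR, and these counts depended on the scaling. They were 2 and 6 with median centring or quantile normalization, 4 and 6 with protein-coding rows rescaled, and 9 and 3 with hepatocyte centring. In the values as deposited, 3 uptake carriers fell: *Slco1a1* fell by 3.71 (limma adjusted p = 1.93e-08), *Slc10a1* (NTCP) by 1.00 (limma adjusted p = 0.000239) and *Slco1b2* by 0.66 (limma adjusted p = 0.000477). *Slco1a4*, another uptake carrier, went the other way and rose by 0.48 (limma adjusted p = 0.0358). *Abcc4*, an efflux pump of the basolateral side, rose by 1.96 (limma adjusted p = 5.32e-07). *Abcb11*, the bile salt export pump, was at 4.74 ± 0.22 (SD, n = 5) in sham, 4.55 ± 0.27 (SD, n = 8) in SBR vehicle and 4.91 ± 0.14 (SD, n = 5) in SBR WUSTL0717 livers, with differences of -0.18 (limma adjusted p = 0.26) after SBR and 0.36 (limma adjusted p = 0.137) with the drug. With WUSTL0717, *Slco1b2* was the 1 of 12 that rose, by 0.50 (limma adjusted p = 0.0341). With median centring, quantile normalization or protein-coding rows rescaled 5 were higher and 1 lower with the drug. With hepatocyte centring 1 was higher and 3 were lower. In treated livers 4 were higher than sham and 1 lower, and with median centring 4 and 4. The median of the list after SBR was 0.13 and turned to -0.17 with libraries centred on their medians. With WUSTL0717 it was 0.17 and turned to -0.17 with hepatocyte centring. Of 6 genes of ileal bile acid handling measured in the liver, *Slc51b* rose by 0.92 (limma adjusted p = 0.00315) and *Nr0b2*, also among the regulators, fell after SBR. The counts were 1 higher and 3 lower with median centring, and 4 higher with hepatocyte centring, where the fall of *Nr0b2* was lost.

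Markers of cell types also differed between the groups, and not all in the direction of the members. After SBR the median log2 difference was 2.11 for cholangiocyte and 0.96 for stellate markers, beside -0.54 for the members. With WUSTL0717 these medians were -0.88, -0.18 and 0.45. Over all 15901 tested genes, 5953 were higher and 710 lower after SBR, and 229 were higher and 423 lower with WUSTL0717. All 9 tested cholangiocyte markers were higher after SBR and 7 were lower with WUSTL0717. The summed TPM of the cholangiocyte markers was 102 to 218 in sham, 490 to 941 in SBR vehicle and 276 to 653 in SBR WUSTL0717 livers. All sums of TPM here and below were recovered from batch-corrected values, so they do not measure the content of a cell type. By the same measure 8 gut epithelial genes summed to 920 to 1737 in SBR vehicle livers. *Krt7*, a keratin of bile duct cells, was at 2.07 ± 0.16 (SD, n = 5), 3.72 ± 0.30 (SD, n = 8) and 2.87 ± 0.52 (SD, n = 5) in the 3 groups. It rose by 1.65 after SBR (limma adjusted p = 1.28e-06) and fell by 0.85 with WUSTL0717 (limma adjusted p = 0.0169). Of 10 stellate cell markers 9 were higher after SBR and 4 lower with WUSTL0717, with summed TPM of 152 to 234, 431 to 738 and 282 to 521 in the same order. Of 9 macrophage markers 2 were higher and 1 lower after SBR and 1 was higher with WUSTL0717, with sums of 183 to 257, 251 to 505 and 318 to 447. With median centring 2 macrophage markers were higher and 4 lower after SBR, and 4 were higher and 1 lower with WUSTL0717. Without the 3 libraries rich in *Gm23935*, 4 were higher and 1 lower after SBR, and with WUSTL0717 1 was lower while the rise was lost. Of 8 inflammation genes 4 were higher after SBR and 0 passed with WUSTL0717 by limma, with 3 at an unadjusted p under 0.05. Under the other 4 scalings 2 to 5 inflammation genes were lower with WUSTL0717. The directions of the cholangiocyte and stellate lists held under all 5 scalings.

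Of 13 hepatocyte markers 4 were lower after SBR, and 0 passed with WUSTL0717 by limma, with 6 at an unadjusted p under 0.05 (median log2 differences -0.39 and 0.27). These counts also depended on the scaling: 11 of 13 were lower after SBR and 7 of 13 higher with WUSTL0717 with median centring, 9 and 2 after quantile normalization, and 11 and 3 with protein-coding rows rescaled. Their summed TPM was 16323 to 21355 in sham, 10769 to 20995 in SBR vehicle and 18150 to 26238 in SBR WUSTL0717 livers. Gut epithelial genes were also above 0 in every liver library after the correction across tissues, so the labelled tissue could not be checked from levels. Of 8 such genes, *Vil1* rose by 1.04 after SBR and fell by 0.69 with WUSTL0717 (limma adjusted p = 1.5e-05 and 0.0149). After SBR 1 of the 8 was higher and 4 lower with median centring, and 8 were higher with hepatocyte centring. Of 9 pericentral genes 5 were lower and 1 higher after SBR, and 0 passed with WUSTL0717 by limma, with 3 at an unadjusted p under 0.05. Of 8 periportal genes 5 were lower and 1 higher after SBR, and 3 were higher and 1 lower with WUSTL0717. With median centring 7 genes of each of these lists were lower after SBR, and 4 pericentral and 6 periportal genes were higher with WUSTL0717. With hepatocyte centring 2 pericentral genes were lower and 3 higher after SBR, and 3 were lower with WUSTL0717, while 4 periportal genes were lower and 2 higher after SBR. The part of these cell types and zones in the members' values was not tested.

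Genes with sex-biased liver expression moved as well, and *Cyp7b1* itself is known for higher levels in male mouse liver. All mice were male. Over all 15901 tested genes, 5953 were higher and 710 lower after SBR, and 229 were higher and 423 lower with WUSTL0717. All 9 tested male-biased genes were lower after SBR, with a median log2 difference of -1.80 (8 with libraries centred on hepatocyte genes or without the 3 libraries rich in *Gm23935*), and 5 were higher with WUSTL0717 (8 with median centring, quantile normalization or protein-coding rows rescaled). *Slco1a1* is among them as well as among the transporters. *Mup21* fell by 3.83 (limma adjusted p = 1.04e-08) and *Cyp2d9* by 1.80 (limma adjusted p = 1.11e-07). With WUSTL0717 *Elovl3* rose by 2.14 and *Cyp4a12a* by 1.97 (limma adjusted p = 0.0041 and 0.00401). *Mup21* and *Cyp4a12a* have near-identical copies, so their own values are uncertain. Of 4 female-biased genes 3 were higher after SBR, with *Cyp2a4* up by 2.15 (limma adjusted p = 3.27e-06), and 0 passed with WUSTL0717 by limma, with 2 at an unadjusted p under 0.05. Of 13 clock genes 1, *Tef*, was lower after SBR by 0.48 (limma adjusted p = 0.0494). With median centring 6 clock genes were lower, with hepatocyte centring 5 were higher, and without the 3 libraries rich in *Gm23935* 1 was higher. In both of these last cases the call of *Tef* was lost. In the values as deposited 0 passed with WUSTL0717 by limma, with 0 at an unadjusted p under 0.05. Whether the fall of *Cyp7b1* belongs with that of the male-biased genes was not tested.

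In the gut libraries 0 of the 8 members were called by limma in any of 3 comparisons in the duodenum (3 sham mice, 4 SBR mice on vehicle and 4 on WUSTL0717) or in the ileum (same numbers), where between 0 and 343 genes were called per comparison. The 0 genes were those of SBR vehicle against sham in the duodenum, where 2426 had an unadjusted p under 0.05. At an unadjusted p under 0.05 there was at most 1 member in a comparison. *Cyp7b1* in the ileum was 3.04 ± 1.41 (SD, n = 3) in sham and 3.91 ± 0.97 (SD, n = 4) in SBR vehicle mice, a difference within the spread. *Baat* in the ileum was 4.44 ± 0.40 (SD, n = 3) in sham and 5.96 ± 0.84 (SD, n = 4) in SBR vehicle mice (difference 1.53, limma adjusted p = 0.246). Of the genes of ileal bile acid handling, *Fabp6*, the ileal bile acid binding protein, rose by 2.05 (limma adjusted p = 0.0137) and *Slc10a2*, the apical bile acid transporter, by 2.02 (limma adjusted p = 0.0145) after SBR. *Nr0b2* in the ileum was 1.08 ± 0.60 (SD, n = 3) in sham, 1.61 ± 0.45 (SD, n = 4) in SBR vehicle and 3.26 ± 0.61 (SD, n = 4) in SBR WUSTL0717 mice. It was higher in treated than in sham mice by 2.17 (limma adjusted p = 0.0177), and its difference of 1.65 from SBR vehicle did not pass (limma adjusted p = 0.31).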

How the data were processed

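RNA was extracted from mouse liver, duodenum and ileum, depleted of ribosomal RNA and sequenced (40 libraries, 18 of them liver). Per the labels and the methods of the study, the authors aligned reads with STAR to GRCm38, counted unique alignments with featureCounts (Subread) and scaled them to TPM. The authors deposited log2 TPM values after ComBat, with the gut as 1 batch and the liver as the other. The header has no name above the gene column, so each library name was moved along by 1 column. Their pseudocount is not given in the sources used here, and 1 was assumed where TPM was recovered. Read totals are unknown.

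Liver groups were compared in R 4.3.3 with limma 3.58.1, using the 15901 genes whose log2 TPM averaged 1 or more (lmFit, eBayes with a variance trend, Benjamini-Hochberg, adjusted p under 0.05), fitted on all 18 liver libraries. Single genes were also tested by exact two-sided permutation. Figures were drawn with matplotlib 3.10.9. In simulated data with 200 changed genes, a log2 change of 1 was recovered in 91.5% for SBR vehicle against sham. It was recovered in 91.0% for WUSTL0717 against vehicle and 84.5% for treated against sham. False calls numbered 3, 9 and 5 in the same order. The noise was drawn independently for each gene, so shifts shared by the genes of a library were not simulated. The rates therefore do not hold for libraries that differ in scaling or composition. Recovery of log2 changes smaller than 1 was not tested, and most members differed by less than that in each comparison. The genes and lists were chosen with earlier results of these data known. Beside the members, at most the 3 called genes with the smallest p of each list and comparison were named. Added to these were Krt7, Abcb11, Slco1a4 and the 3 genes most correlated with each member. Alternatives were other filters, pseudocounts, scalings, tests, library weights, groups, a replicate block and leaving out each library. Hepatocyte centring, rescaling of protein-coding rows and leaving out 3 libraries were added after seeing the data.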

Additional observations from a re-analysis of the deposited data

Results flagged for a closer look

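*Baat* in SBR vehicle library 2 stood at 3.84 log2 TPM, below the other 7 SBR vehicle libraries by more than Dixon's 95% limit. It was 1 of 24 groups of liver values tested, and chance flags about 1 in 20. In the same library *Gm23935* held 32.2% of the TPM total recovered from the corrected values, the highest share of the 18 liver libraries. Its part in the value was not tested. Without the 3 libraries above 20%, *Baat* was still lower after SBR at an adjusted p under 0.05 by limma.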

How the results depend on the processing

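Of the 8 members' log2 differences recomputed with 1 library left out, 396 kept their direction and side of the threshold, 17 lost and 2 gained a call and 17 changed sign. Under the other alternatives these numbers were 274, 12, 24 and 26. After SBR, genes called numbered 4180 at a mean log2 TPM of 3, 10462 with library weights and 13805 with hepatocyte centring, where 3 members were called. Leaving out 1 library gave 5399 to 9010 genes and 5 to 7 members. *Cyp7a1* turned to -0.30 (median centring), -0.29 (quantile normalization), -0.094 (library weights), -0.18 (protein-coding rows) and -0.040 (3 libraries left out), and ran from -0.078 to 0.15 when 1 library was left out. With hepatocyte centring *Cyp27a1* and *Amacr* turned to 0.13 and 0.14.

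With WUSTL0717 against vehicle, genes called numbered 334 (mean log2 TPM of 3), 3133 (median centring), 2635 (quantile normalization), 0 (unmoderated test, 2223 at an unadjusted p under 0.05), 2819 (library weights), 148 (compared groups alone), 8862 (hepatocyte centring), 3199 (protein-coding rows) and 1500 (3 libraries left out). Members called were 7 with median centring, quantile normalization and protein-coding rows, 0 with the unmoderated test and 1 with the compared groups alone. Leaving out 1 library gave 93 to 1075 genes (93 without WUSTL0717 library 3, 113 without 2, 176 without 1, 1075 without 4, and 408 without SBR vehicle 1) and 1 to 4 members. *Cyp7a1* turned to -0.11 (library weights) and -0.18 (hepatocyte centring) and ran from -0.044 to 0.27 when 1 library was left out, and *Amacr* turned to -0.038 (hepatocyte centring).

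For treated against sham, genes called numbered 8387 with library weights and 9074 with hepatocyte centring, and 2456 to 6727 when 1 library was left out (2456 without WUSTL0717 library 4, 2688 without sham 2), with 1 member each time. Members called were 3 (median centring), 4 (quantile normalization), 2 (library weights), 2 (hepatocyte centring) and 5 (protein-coding rows). *Cyp7a1* turned to -0.14, -0.14, -0.20 and -0.12 with median centring, quantile normalization, library weights and protein-coding rows. *Cyp8b1* turned to -0.071, -0.070 and -0.062 and *Cyp27a1* to -0.13, -0.11 and -0.13 with the first, second and last of these, and *Amacr* to -0.29, -0.28, -0.081 and -0.28 with the same 4 and -0.038 without the 3 libraries. *Slc27a5* turned to 0.059 with hepatocyte centring. When 1 library was left out, *Amacr* ran from -0.038 to 0.072, *Slc27a5* from -0.11 to 0.047 and *Cyp7a1* from -0.034 to 0.28. The causes were not tested.

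The labels do not say whether the replicate numbers pair the mice. Deviations of same-numbered libraries had a mean correlation of -0.012, against 0.0020 for other numbers, and 3 of 15 libraries correlated best with their own number. A shared cage, litter or operation day need not leave such a correlation. The methods of the study describe controls as littermates and siblings as housed together. Which libraries came from the same litter or cage is not given, so the pairing of the libraries stays unknown. With the replicate block 6 members and 5587 genes were called after SBR, 2 members and 485 genes with WUSTL0717, and 1 member and 6075 genes for treated against sham. Depth could not be weighed, since read totals are unknown.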
